A study of Mus musculus with 491 samples.

Results

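The Sox genes encode transcription factors with an HMG-box DNA-binding domain, and 9 of them are described here among the 19494 genes measured in single cells of the developing mouse ear and the tissue around it. The members were taken by name: Sox1, Sox2 and Sox3 of the SoxB1 subgroup, Sox21 of SoxB2, Sox8, Sox9 and Sox10 of SoxE, and Sox4 and Sox11 of SoxC. SoxB1 factors are known for holding neural and sensory progenitors in an undifferentiated state, and Sox21 is known as a counterpart that acts mainly as a repressor. SoxE factors act in the otic placode, in neural crest and its glial derivatives, and in cartilage. SoxC factors are known for acting in young neurons after proneural genes have started.

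The data are 491 cells of 1 group, all tdTomato+ cells sorted at E10.5 from the otic vesicle and periotic tissue of Pax2-Cre/+;Ai14-tdTomato/+ embryos. In these embryos Cre is expressed from the Pax2-Cre transgene, and the Ai14 reporter stays on in cells that have expressed Cre and in their descendants, so cells outside the otic vesicle are labelled too. There is no untreated or mutant group, and comparisons run between kinds of cells. Replicate 1 holds 237 cells on plates 1 to 3 and replicate 2 holds 254 cells on plates 4 to 6. The labels do not say what separates the 2 replicates. The p-values rest on how the levels of the kinds of cells vary between these 2 replicates once their common shift is removed, and not on the spread over cells. That spread between replicates is estimated for each gene over all kinds of cells together. It is then drawn toward the spread of other genes with a similar mean level.

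Values are log2 FPKM (fragments per kilobase of transcript, scaled to each library total, a level per length that can be compared between genes), with every value under an FPKM of 1 listed at 0. A gene is called found in a cell where its value is above 0. Cells held 2695 to 6766 found genes (median 4941), and depth in reads is unknown. Wells were not fully separate: 337 cells had a source well in the same plate column, whose rare, strongly expressed genes also appeared in them, at a median of 5.93% of the source well's FPKM (quartiles 3.97 and 8.57), and 154 cells had no such source well. Some of the levels, shares and calls are therefore given also after subtracting the transferred amount, or in the 154 cells.

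Cells were grouped by 73 marker genes, none of them a Sox gene, into 7 classes named from their markers. There were 156 otic epithelium-like cells, 50 early neuroblast-like cells, 53 differentiating neuron-like cells, 108 neural tube progenitor-like cells, 36 surface ectoderm-like cells, 23 mesenchyme-like cells and 65 neuronal cells, led by Nefl, Nefm and Tubb3, that fitted no marker list alone and are called cluster 2. Both replicates held all 7 classes, the early neuroblast-like class with 17 cells in replicate 1 and 33 in replicate 2. Of all cells, 7 held at least 4 endothelial or macrophage markers, 6 of them in the otic epithelium-like class and 1 in the early neuroblast-like class. A class mean is the mean of log2 FPKM over the cells of a class and replicate, and differences were tested with limma over 10547 genes, with the replicate as a block and Benjamini-Hochberg adjustment. A gene is called at an adjusted p below 0.05, and all 9 members passed the filter for testing.

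The SoxC genes were the most widely found members. Sox11 was found in 99.2% of cells and Sox4 in 95.5%, followed by Sox9 in 78.4%, Sox2 in 56.0%, Sox10 in 32.6%, Sox21 in 28.7%, Sox8 in 20.6%, Sox3 in 18.9% and Sox1 in 13.2%. Where found, the median level was 84.9 FPKM for Sox11, 56.1 FPKM for Sox4, 29.6 FPKM for Sox9 and 21.9 FPKM for Sox2, against 5.1 FPKM for Sox1, the lowest. Sox4 and Sox11 were the members higher in differentiating neuron-like than in otic epithelium-like cells, described further on, and their promoters are shown for that reason. The 250 bases before the RefSeq start (GRCm38.p6) are written 5′ to 3′ on the gene's strand, Sox4 from chr13:28953700-28953949 (minus strand) and Sox11 from chr12:27342719-27342968 (minus strand), and capitals mark every CANNTG, the E-box letters that bHLH factors such as Neurog1 and Neurod1 recognise.
Sox4: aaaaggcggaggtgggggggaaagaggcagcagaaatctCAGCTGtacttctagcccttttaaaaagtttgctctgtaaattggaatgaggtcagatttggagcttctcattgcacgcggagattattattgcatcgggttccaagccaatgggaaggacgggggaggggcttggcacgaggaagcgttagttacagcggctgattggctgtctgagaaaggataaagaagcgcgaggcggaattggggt
Sox11: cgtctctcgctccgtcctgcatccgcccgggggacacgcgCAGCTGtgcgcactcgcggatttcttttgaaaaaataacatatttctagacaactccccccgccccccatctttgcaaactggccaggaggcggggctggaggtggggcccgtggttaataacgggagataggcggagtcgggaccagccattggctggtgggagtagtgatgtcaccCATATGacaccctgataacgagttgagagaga

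Both windows hold CAGCTG, with its first base at -211 in Sox4 and at -210 in Sox11 from the RefSeq start. From the GENCODE start, which lies 14 bases upstream of it for Sox4 and 144 bases downstream for Sox11, it is at -197 and -354. CAGCTG occurs in 16.3% of the 32851 promoter windows of 300 bases in the table, and any CANNTG in 72.3%, both strands alike since these letters are palindromic. The Sox4 window also holds 4 matches to CCAAT or its complement ATTGG, and the Sox11 window 1, where 37.4% of all windows hold at least 1. Promoter entries were matched for 6 of the 9 members, and the windows of Sox1 and Sox21 held no CANNTG, while those of Sox2 and Sox8 held 1 each. None of the 6 windows held AACAAT or its complement ATTGTT, letters to which Sox factors bind, which occur in 10.7% of all windows. These matches describe letters and show no binding.

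The 9 genes lie on 9 chromosomes, given here as in GENCODE M21 on GRCm38, the mm10 assembly that the submitters' processing notes name. Sox1 (chromosome 8, 12395295 to 12400126), Sox2 (chromosome 3, 34650405 to 34652461) and Sox9 (chromosome 11, 112782224 to 112787760) are on the plus strand. Sox3 (chromosome X, 60891366 to 60893430), Sox21 (chromosome 14, 118233232 to 118237030), Sox8 (chromosome 17, 25565892 to 25570686), Sox10 (chromosome 15, 79154908 to 79165240), Sox4 (chromosome 13, 28948919 to 28953713) and Sox11 (chromosome 12, 27334264 to 27342574) are on the minus strand. Sox8 and Sox9 have 3 exons and Sox10 has 5, and the other members are single-exon genes. Sox1 and Sox2 lie within the noncoding genes Sox1ot and Sox2ot on the same strand, whose reads cannot be told apart from theirs by strand. Sox21, Sox8 and Sox4 overlap a gene on the other strand, whose reads cannot be told apart from theirs where the counting did not use strand. No stretch of 75 bases, the read length, was shared between transcripts of 2 members (0 of 35634).

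**Figure D1:**
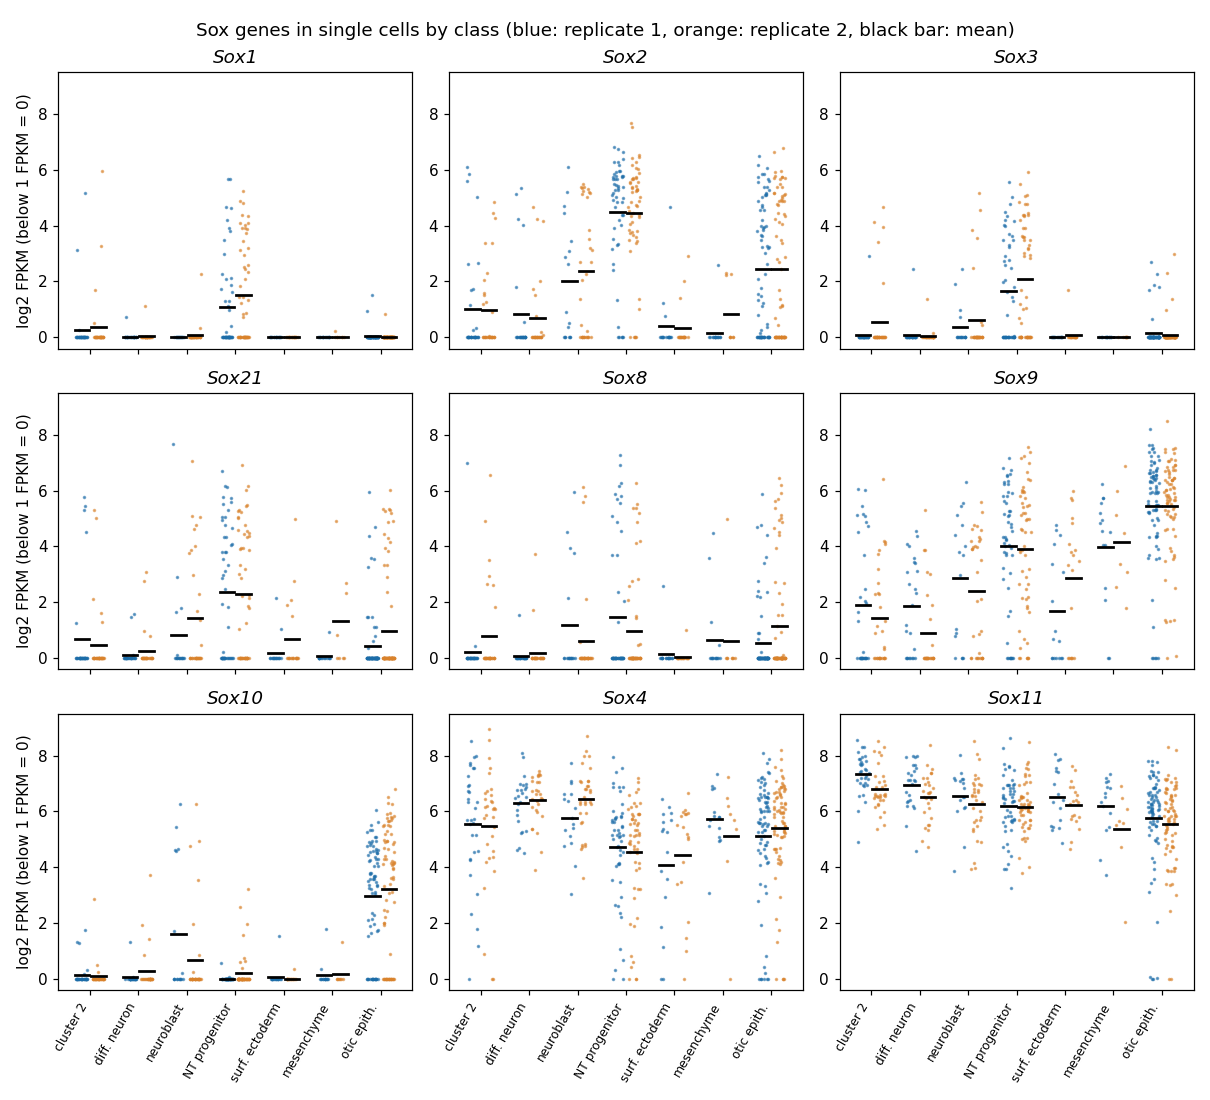
Each point is 1 cell, with its class on the horizontal axis and log2 FPKM of the named gene on the vertical axis (below 1 FPKM drawn at 0), blue for replicate 1, orange for replicate 2, and a black bar for the mean of a replicate. Sox1 and Sox3 points stand mostly in neural tube progenitor-like cells, Sox10 points in otic epithelium-like cells, and Sox4 and Sox11 points in every class.

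Sox2, a SoxB1 factor needed for sensory and neuronal fates in the ear, was highest in neural tube progenitor-like cells and next in otic epithelium-like cells. Its class mean was 4.48 and 4.46 log2 FPKM (replicates 1 and 2) in neural tube progenitor-like cells, against 2.44 and 2.44 in otic epithelium-like cells. The replicate means of the 2 classes did not overlap, though single cells did. The difference was 2.03 ± 0.37 (SE, limma adjusted p = 0.00238), and it had the same sign on 6 of 6 plates. Sox2 was found in 90.7% of the neural tube progenitor-like cells (exact 95% interval 83.6 to 95.5) and in 61.5% of the otic epithelium-like cells (53.4 to 69.2), and after subtraction of transfer in 88.0% and 50.6%. Where found, its median was 38.5 FPKM in neural tube progenitor-like cells and 21.6 FPKM in otic epithelium-like cells. Intervals and limits of this kind cover counting error only, and cells of 1 replicate share their source. The call was lost where FPKM was averaged before taking the log (1.18, adjusted p = 0.294) and in the cells with no source well (2.52, adjusted p = 0.0947).

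Early neuroblast-like cells held Sox2 at 2.02 and 2.37 log2 FPKM, against 2.44 and 2.44 in otic epithelium-like cells. The difference of -0.24 ± 0.37 was not called (adjusted p = 0.88), and 64.0% of early neuroblast-like cells held the transcript. In differentiating neuron-like cells the mean was 0.84 and 0.69. Against early neuroblast-like cells Sox2 fell by 1.43 ± 0.37 (limma adjusted p = 0.0358, same sign on 5 of 6 plates), and against otic epithelium-like cells by 1.67 ± 0.37 (adjusted p = 0.00546, 6 of 6 plates). The first call was lost where clusters are drawn at other resolutions (-1.33, adjusted p = 0.0531, and -1.11, adjusted p = 0.21), by marker gates (-1.27, adjusted p = 0.179) or on the log of mean FPKM (-1.56, adjusted p = 0.132). The second was lost by marker gates (-1.31, adjusted p = 0.0975) and in the cells with no source well, where it was -0.91 (adjusted p = 0.488).

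Sox2 was low in surface ectoderm-like and mesenchyme-like cells too. Surface ectoderm-like cells had 0.39 and 0.33 log2 FPKM and mesenchyme-like cells 0.17 and 0.85, against 2.44 and 2.44 in otic epithelium-like cells, with differences from otic epithelium-like cells of -2.07 ± 0.37 (limma adjusted p = 0.00242) and -1.92 ± 0.37 (adjusted p = 0.00382). After subtraction of transfer, Sox2 was left in 5.6% of surface ectoderm-like cells and in 0 of 23 mesenchyme-like cells. In the order of levels over all 7 classes, only the step between neural tube progenitor-like and otic epithelium-like cells was called. For the other neighbours in that order it was not, with adjusted p from 0.0616 (early neuroblast-like and cluster 2 cells, 1.2 apart) upward.

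Sox1 and Sox3, the other SoxB1 genes, were found mainly in neural tube progenitor-like cells. Sox1, used as a marker of committed neural tube cells, had 1.08 and 1.53 log2 FPKM there, against 0.03 and 0.01 in otic epithelium-like cells. Sox3, known from early placodal and neural ectoderm, had 1.65 and 2.08 in neural tube progenitor-like cells, against 0.14 and 0.10 in otic epithelium-like cells. Both differences were called, at 1.28 ± 0.15 for Sox1 (limma adjusted p = 6.13e-05) and 1.75 ± 0.19 for Sox3 (adjusted p = 2.53e-05), with all 6 plates alike. In the order of levels, each gene's step down from neural tube progenitor-like cells to the next class was called, and no later step was.

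The otic epithelium-like cells held next to no Sox1. It was found in 3 of 156 of them as deposited, in 0 after subtraction of transfer, and in 0 of the 55 with no source well, which allows a share of up to 5.45%. Sox3 differs here, since it stayed in 8 of the 156 after subtraction and was found in 5 of the 55 with no source well. Early neuroblast-like cells had Sox3 at 0.36 and 0.63 log2 FPKM and in 22.0% of cells, against 6.4% of otic epithelium-like cells, and the difference in level was not called (0.37, adjusted p = 0.436). Of the 11 early neuroblast-like cells with Sox3, 10 also held Sox2.

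Sox21 had its highest mean in neural tube progenitor-like cells too. It had 2.37 and 2.29 log2 FPKM in neural tube progenitor-like cells, against 0.43 and 0.98 in otic epithelium-like cells, a difference of 1.62 ± 0.33 (limma adjusted p = 0.00558, 6 of 6 plates). That call was lost on the log of mean FPKM (1.83, adjusted p = 0.214) and in the cells with no source well (1.29, adjusted p = 0.241). Early neuroblast-like cells were next, at 0.83 and 1.42 and with Sox21 in 36.0% of cells (26.0% after subtraction of transfer), and the step between them and neural tube progenitor-like cells was not called (1.2, adjusted p = 0.076). In otic epithelium-like cells Sox21 was found largely where Sox2 was: 26 cells held both, 6 held Sox21 alone, 70 held Sox2 alone and 54 neither (20, 5, 59 and 72 after subtraction), with Pearson r of 0.27 and 0.24 over the cells of replicates 1 and 2. Correlations over cells are given throughout as descriptions, since the cells share plates and depth.

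Taking the subgroup as a whole, 27 of 108 neural tube progenitor-like cells held all 3 SoxB1 transcripts and 54 held 2 of them (23 and 55 after subtraction of transfer). Of the 156 otic epithelium-like cells, 94 held 1 and 55 held none, and 96 held Sox2. Between neural tube progenitor-like and otic epithelium-like cells 5 of the 9 members were called, Sox1, Sox2, Sox3 and Sox21 higher and Sox10 lower, where 6.19% of all genes tested were called.

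Sox9, a SoxE factor with roles in placode invagination and in cartilage, had its highest mean in the otic epithelium. It had 2.87 and 2.42 log2 FPKM in early neuroblast-like cells, against 5.44 and 5.44 in otic epithelium-like cells. Differentiating neuron-like cells were lower again, at 1.86 and 0.90. Against otic epithelium-like cells it fell by 2.80 ± 0.47 in early neuroblast-like cells (limma adjusted p = 0.0028, 6 of 6 plates), and by 4.06 ± 0.47 in differentiating neuron-like cells (adjusted p = 1.71e-05, 6 of 6 plates). Both calls held in every alternative with a test, 13 and 14 of them. The step between early neuroblast-like and differentiating neuron-like cells was -1.27 and was not called (adjusted p = 0.17).

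Sox9 was also broad. It was found in 87.0% of neural tube progenitor-like cells, at 4.01 and 3.90 log2 FPKM, and in 91.3% of mesenchyme-like cells, at 4.0 and 4.16. After subtraction of transfer the shares were 71.3% and 82.6%. Neither class differed from otic epithelium-like cells at the threshold, with -1.49 (adjusted p = 0.0773) for neural tube progenitor-like cells and -1.36 (adjusted p = 0.104) for mesenchyme-like cells. The first was called under 2 of 13 alternatives. These were leaving out cells with endothelial or macrophage markers (-1.64, adjusted p = 0.0493) and weighting by number of cells (-1.48, adjusted p = 0.00146). Surface ectoderm-like cells differed from otic epithelium-like cells, with 1.68 and 2.87 and a difference of -3.16 ± 0.47 (limma adjusted p = 0.000485). Against otic epithelium-like cells, 3 of the 9 members were called in surface ectoderm-like cells (Sox2, Sox9 and Sox10, all lower), where 4.73% of all genes were, and 2 in mesenchyme-like cells (Sox2 and Sox10, both lower), where 6.33% were. Sox9 was found in 49.1% of differentiating neuron-like cells as deposited and in 28.3% after subtraction of transfer, while 8 of the 17 such cells with no source well still held it.

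Sox10, the SoxE factor of the otic vesicle, neural crest and glia, was highest in the otic epithelium. It had 1.62 and 0.68 log2 FPKM in early neuroblast-like cells and 0.06 and 0.28 in differentiating neuron-like cells, against 2.98 and 3.23 in otic epithelium-like cells. The differences from otic epithelium-like cells were -1.96 ± 0.28 for early neuroblast-like cells (limma adjusted p = 0.000753) and -2.94 ± 0.28 for differentiating neuron-like cells (adjusted p = 2.45e-06), each with the same sign on 6 of 6 plates. The differences from otic epithelium-like cells were -3.00 for neural tube progenitor-like cells (adjusted p = 7.02e-06), -3.05 for surface ectoderm-like cells (adjusted p = 3.65e-06) and -2.95 for mesenchyme-like cells (adjusted p = 5.3e-06). In the order of Sox10 levels, the step of early neuroblast-like against otic epithelium-like cells was the only called one. The difference of differentiating neuron-like from early neuroblast-like cells missed the threshold (-0.98, adjusted p = 0.0594) and passed it after subtraction of transfer (-1.01, adjusted p = 0.0302) and on the log of mean FPKM (-2.57, adjusted p = 0.0154). Of the otic epithelium-like cells 75.0% held Sox10, and of the neural tube progenitor-like cells 9.3% did, and among the neural tube progenitor-like cells it was found in 0.9% after subtraction of transfer and in 0 of the 36 cells with no source well, which allows up to 8.33%.

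Sox10 was found in 14 of the 50 early neuroblast-like cells, 10 after subtraction of transfer. At a finer clustering 7 of the 50 cells, with or without Sox10, formed a cluster of their own. Its leading genes include Foxd3 and Cdh19, genes known from neural crest and its glial derivatives. These 7 cells had Sox10 at 5.45 and 1.57 log2 FPKM (3 and 4 cells), against 0.74 and 0.54 in the 45 cells of the early neuroblast-like class at that resolution. Sox10 was found in 57.1% of the 7 cells, against 22.2% of the 45. The 7 cells also held Sox8 in 57.1% and Sox9 in 42.9%, against 15.6% and 75.6% of the 45, values given with no test. In the fit at that finer clustering, where other class borders moved as well, the Sox10 difference of early neuroblast-like from otic epithelium-like cells was -2.57 (limma adjusted p = 3.93e-06). At the main clustering, on the log of mean FPKM, which a few high cells can set, the Sox10 difference was -1.17 and not called (adjusted p = 0.336).

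Sox8, the remaining SoxE gene, which often accompanies Sox9 and Sox10, was sparse and no class difference was called in the main fit. On the log of mean FPKM, Sox8 was called lower in differentiating neuron-like than in early neuroblast-like cells (-2.42, limma adjusted p = 0.0434). The same held against otic epithelium-like cells (-2.05, adjusted p = 0.0415). In the values of the main fit, Sox8 levels were as follows. It had 1.2 and 0.61 log2 FPKM in early neuroblast-like cells and 0.06 and 0.19 in differentiating neuron-like cells, against 0.55 and 1.13 in otic epithelium-like cells, with replicates that overlap between the first and the last. It was found in 29.6% of neural tube progenitor-like cells, 25.6% of otic epithelium-like cells, 20% of early neuroblast-like cells and 5.7% of differentiating neuron-like cells, and after subtraction of transfer in 25%, 19.9%, 18.0% and 1.9%. Among otic epithelium-like cells 35 of 156 held all 3 SoxE transcripts and 86 held 2, while 24 of 53 differentiating neuron-like cells held none, 36 of 53 after subtraction of transfer. In early neuroblast-like against otic epithelium-like cells 2 of the 9 members were called, both SoxE genes and both lower, where 2.82% of all genes were called.

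Sox11, a SoxC factor of young neurons, was high everywhere and highest in neuronal cells. It had 6.93 and 6.51 log2 FPKM in differentiating neuron-like cells, against 5.77 and 5.54 in otic epithelium-like cells. The replicate means did not overlap, though single cells did, with highest values of 8.39 and 8.3 log2 FPKM in these classes. The difference was 1.06 ± 0.25 (limma adjusted p = 0.00871), with the same sign on 6 of 6 plates. It held in 13 of 14 alternatives and was 0.95 (adjusted p = 0.217) in the cells with no source well. Early neuroblast-like cells lay between, at 6.55 and 6.25, and neither step by itself was called (0.75 against otic epithelium-like cells, adjusted p = 0.155, and 0.32 from them to differentiating neuron-like cells, adjusted p = 0.608). The order of levels ran from cluster 2 through differentiating neuron-like, early neuroblast-like, surface ectoderm-like, neural tube progenitor-like and mesenchyme-like cells to otic epithelium-like cells, and no neighbouring step in it was called.

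Sox4, its SoxC partner, had its highest mean in differentiating neuron-like cells. It had 6.29 and 6.39 log2 FPKM in differentiating neuron-like cells, against 5.11 and 5.42 in otic epithelium-like cells, without overlap of these replicate means. The difference of 1.08 ± 0.33 was called (limma adjusted p = 0.0399) and had the same sign on 6 of 6 plates, but the call was lost under 9 of 14 alternatives, among them subtraction of transfer (1.07, adjusted p = 0.0819) and leaving out cells with markers of endothelium or macrophages (0.95, adjusted p = 0.0695). Early neuroblast-like cells had 5.76 and 6.43, with a difference from otic epithelium-like cells of 0.83 that was not called (adjusted p = 0.256). Surface ectoderm-like cells had the lowest mean, at 4.1 and 4.43, and no neighbouring step in the order of Sox4 levels was called. Of the 9 members, 5 were called between differentiating neuron-like and otic epithelium-like cells, Sox4 and Sox11 higher and Sox2, Sox9 and Sox10 lower, where 12.8% of all genes were called. Between differentiating neuron-like and early neuroblast-like cells 1 was called, Sox2, where 4.16% of all genes were, and Sox10 joined it after subtraction of transfer.

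The cells of the otic epithelium-like, early neuroblast-like and differentiating neuron-like classes were also sorted by Neurog1, Neurod1 and Stmn2 alone, without class borders between them. In each of the last 2 classes 1 of 10 otic markers was found in at least 25% of cells, and their otic origin was not tested. Neurog1 and Neurod1 are proneural factors of the ear ganglion and Stmn2 marks growing axons. Sox10 was found in 75.4% of the 130 cells with none of the 3 genes, in 41.3% of the 46 cells with Neurog1 or Neurod1 but no Stmn2, and in 18.4% of the 76 cells with Neurod1 and Stmn2. After subtraction of transfer, which also redraws the states, these shares were 71.6% of 155 cells, 23.3% of 43 and 3.6% of 55. Sox9 went through 93.8%, 84.8% and 59.2% as deposited, and 89.0%, 69.8% and 30.9% after subtraction.

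For Sox2 the first 2 states had similar shares. It was found in 62.3%, 58.7% and 40.8% of the cells of these 3 states as deposited, and in 49.7%, 55.8% and 20% after subtraction of transfer, with exact 95% intervals of 41.6 to 57.8 in the first state and 10 to 33 in the last. In cells that held Neurog1 but neither of the other genes, 6 in these classes as deposited, all 6 held Sox2 and 5 held Sox10. Among all otic epithelium-like cells, 5 held Sox2 together with Neurog1 as deposited and 3 after subtraction of transfer, all of them in replicate 1. Sox4 was found in 92.3% of the first state and in every cell of the other two, and Sox8 in 24.6%, 26.1% and 9.2%. These shares have no test.

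**Figure D2:**
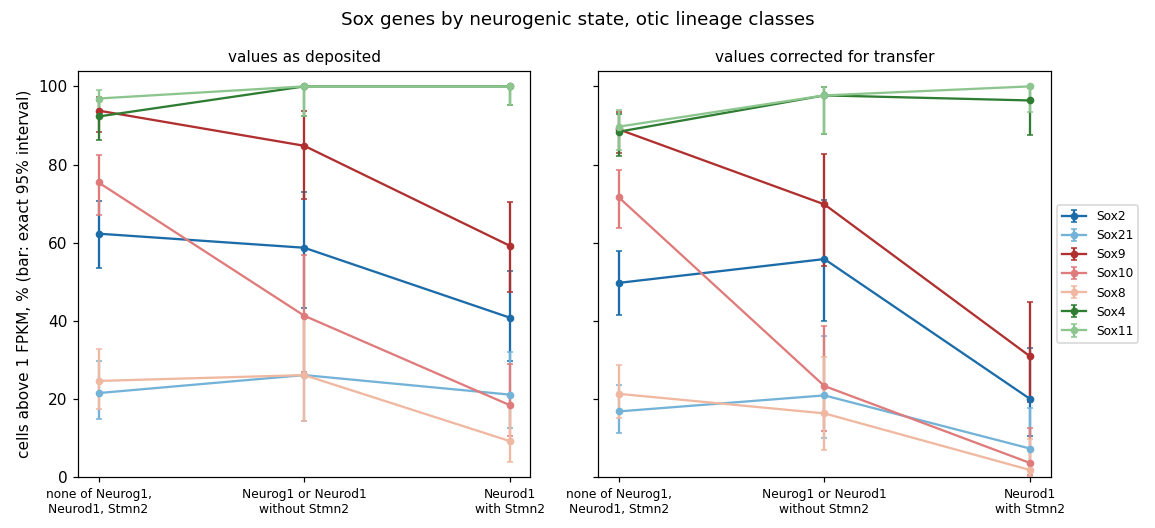
Share of cells above 1 FPKM (vertical axis, percent) for 7 Sox genes in otic epithelium-like, early neuroblast-like and differentiating neuron-like cells (otic lineage classes in the title), in 3 states by Neurog1, Neurod1 and Stmn2 (horizontal axis), as deposited on the left and after subtraction of transfer on the right, with exact 95% intervals. Sox10 has its lowest share in the last state, 3.6% on the right, while Sox2 stays at 49.7% and 55.8% over the first and is at 20% in the last state.

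Joint detection in single cells shows how far progenitor and neuronal genes met. In early neuroblast-like cells 27 of 50 held Sox2 together with Neurod1 and 9 held Sox10 together with Neurod1, and after subtraction of transfer 19 and 3 did. In differentiating neuron-like cells, 15 of 53 held Sox2 with Neurod1 as deposited and 8 after subtraction. In otic epithelium-like cells, 81 of 156 held Sox2 and Sox10 together, 36 held Sox10 alone, 15 held Sox2 alone and 24 neither, while 116 held Sox9 and Sox10 together and 1 held Sox10 without Sox9. After subtraction of transfer 67 held Sox2 and Sox10 together, 110 held Sox9 and Sox10 together and 5 held Sox10 without Sox9.

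The otic epithelium-like cells fell into 3 clusters, with 1 of the 9 members called between clusters 5 and 8 and 1 between clusters 5 and 0. Cluster 5 (48 cells) was led by Oc90, an otoconial protein of nonsensory epithelium, and Dlx5. Cluster 8 (27 cells) had Epcam, Dlx5, Oc90, Hmx3 and Hmx2 as its leading markers, in that order. Oc90 and Dlx5 thus led both, and Hmx3 and Hmx2 were among the leading markers of cluster 8 only. Cluster 0 (81 cells) held the rest. Sox2 had 1.84 and 1.31 log2 FPKM in cluster 5, against 3.46 and 3.3 in cluster 8, a difference of -1.80 (limma adjusted p = 0.0464, 5 of 6 plates). Sox10 had 3.85 and 4.27 in cluster 5, against 2.43 and 2.58 in cluster 0, a difference of 1.56 (adjusted p = 0.0427, 6 of 6 plates). The other pairs were not called, with -1.03 for Sox2 in cluster 5 against cluster 0 (adjusted p = 0.613) and 0.86 for Sox10 in cluster 5 against cluster 8 (adjusted p = 0.292). The replicate means overlapped in neither called pair, and both calls also held after subtraction of transfer (-1.75, adjusted p = 0.0461, and 1.58, adjusted p = 0.0341). The comparisons among clusters were added after the values were seen, and 1.94% of all genes were called between clusters 5 and 8 and 1.15% between clusters 5 and 0.

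Sox11 differed in the same direction as Sox2, with 5.73 and 4.53 log2 FPKM in cluster 5, against 6.32 and 6.19 in cluster 8. That difference of -1.13 was not called (adjusted p = 0.0657), and after subtraction of transfer it was -1.70 (limma adjusted p = 0.0133). Sox9 had 6.13 and 6.13 in cluster 5, against 5.03 and 4.90 in cluster 0, and this difference was not called (1.16, adjusted p = 0.525). Cell by cell, Sox2 and Oc90 levels were inversely related in otic epithelium-like cells, with Pearson r of -0.22 and -0.34 in replicates 1 and 2, while Sox10 and Oc90 gave 0.31 and 0.17 and Sox9 and Sox10 0.47 and 0.39. These are descriptions over cells that share plates and depth, and Oc90 is a marker that was used to draw the clusters. Nothing was called among members between clusters 8 and 0, where 0.114% of all genes were.

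**Figure D3:**
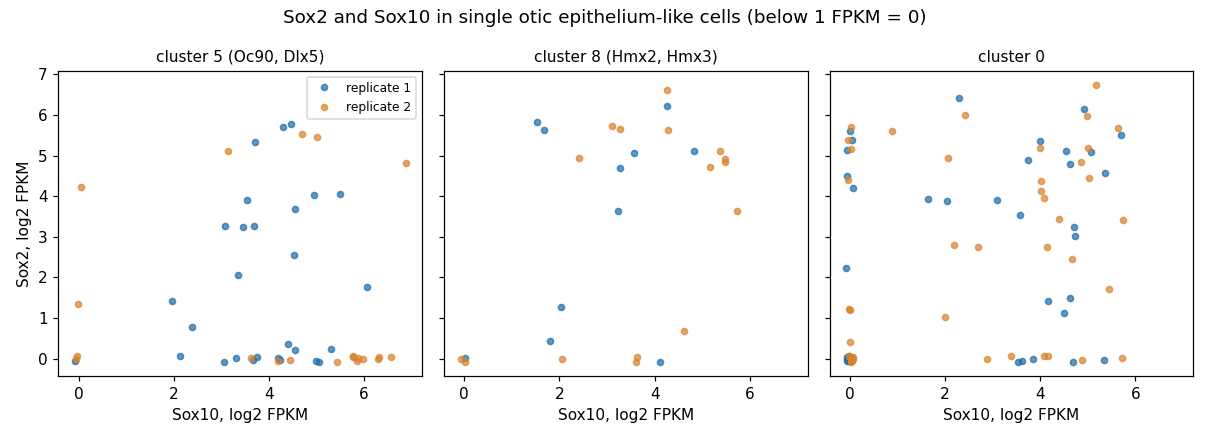
Each point is 1 otic epithelium-like cell, with Sox10 on the horizontal and Sox2 on the vertical axis (log2 FPKM, below 1 FPKM at 0, points shifted slightly at random), in clusters 5, 8 and 0, blue for replicate 1 and orange for replicate 2. Cluster 5 has many cells with Sox10 but no Sox2, cluster 8 holds most of its cells high in Sox2, and cluster 0 has a group of cells with neither.

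Cluster 2, the neuronal cells that fitted no marker list alone, showed no called member against differentiating neuron-like cells, where 3.36% of all genes were called. At a finer clustering its 65 cells went to 2 clusters, 38 to finer cluster 5 and 27 to finer cluster 8, which also took 2 neural tube progenitor-like cells. Finer cluster 5 (38 cells) was led by the neurofilament genes Nefl and Nefm and by Tlx2, a homeobox gene. Finer cluster 8 (29 cells) was led by Tubb3, Dll3 and Dcc and held no marker list alone. The comparisons of finer clusters were added after the values were seen.

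Set against neural tube progenitor-like cells, finer cluster 8 differed in SoxC, SoxB1 and SoxE members. Sox4 had 7.06 and 6.52 log2 FPKM in finer cluster 8, against 4.71 and 4.45 in neural tube progenitor-like cells, a difference of 2.21 ± 0.35 (limma adjusted p = 0.000413). Sox11 had 7.5 and 7.25, against 6.09 and 6.02, a difference of 1.32 (adjusted p = 0.00231). The replicate means overlapped for neither gene, and both differences had the same sign on 6 of 6 plates. Sox2 fell to 1.85 and 1.4 in finer cluster 8, against 4.54 and 4.62 in neural tube progenitor-like cells (-2.95, adjusted p = 0.000128). Sox3 (-1.11, adjusted p = 0.00212), Sox9 (-2.10, adjusted p = 0.00821) and Sox1 (-0.57, adjusted p = 0.0306) were lower too. In all, 6 of the 9 members were called, where 12% of all genes were, and all 6 calls held after subtraction of transfer.

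The Sox4 level separated the 2 finer clusters. It had 4.21 and 4.82 log2 FPKM in finer cluster 5, against 7.06 and 6.52 in finer cluster 8, a difference of -2.27 (limma adjusted p = 0.000566, 6 of 6 plates). It was also lower in finer cluster 5 than in differentiating neuron-like cells (-1.83, adjusted p = 0.00714, 5 of 6 plates), while Sox11, at 7.25 and 6.55 in finer cluster 5, was not called against either (0.18, adjusted p = 0.875, against differentiating neuron-like cells and -0.47, adjusted p = 0.286, against finer cluster 8). Sox21 (-1.22, adjusted p = 0.0488) and Sox1 (-0.65, adjusted p = 0.0205) were lower in finer cluster 5 than in finer cluster 8. In all, 9.03% of genes were called between the finer clusters and 2.56% between finer cluster 5 and differentiating neuron-like cells.

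In the fit at the finer clustering, the difference of differentiating neuron-like from otic epithelium-like cells was set against that of finer cluster 8 from neural tube progenitor-like cells. For the members found in both starting classes the contrast between them was not called, at 1.34 for Sox2 (limma adjusted p = 0.239), -1.99 for Sox9 (adjusted p = 0.124), -1.15 for Sox4 (adjusted p = 0.244), -0.28 for Sox11 (adjusted p = 0.773), 0.41 for Sox21 (adjusted p = 0.767) and -0.18 for Sox8 (adjusted p = 0.883), where 4.43% of all genes were called. For Sox10 the contrast was called (-2.99, limma adjusted p = 2.9e-05). It is not read, since Sox10 was near 0 in finer cluster 8 (0.09 and 0.02 log2 FPKM) and in neural tube progenitor-like cells (0.01 and 0.21). Sox1 (0.58, adjusted p = 0.191) and Sox3 (1.09, adjusted p = 0.0507) were near 0 in otic epithelium-like cells and are not read either. After subtraction of transfer the contrast was called for Sox3 (1.12, adjusted p = 0.033). The condition that a member be found in both starting classes was set after the values were seen.

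**Figure D4:**
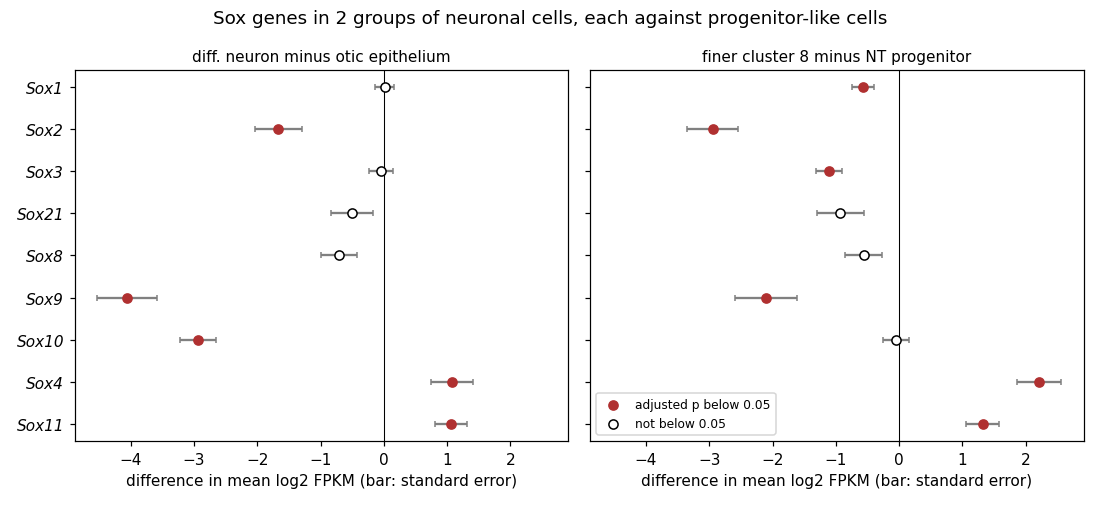
Difference in mean log2 FPKM (horizontal axis) of the 9 Sox genes between differentiating neuron-like and otic epithelium-like cells on the left and between finer cluster 8 and neural tube progenitor-like cells on the right, with standard errors as bars and filled points for adjusted p below 0.05. Sox4 and Sox11 lie right of 0 and Sox2 and Sox9 left of 0 in both panels, and Sox10 lies at -2.94 on the left and close to 0 on the right.

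Genes known from work with these factors were counted from lists chosen by function. In the list of SoxE-associated matrix and neural crest genes, 9 of 12 were tested, and 4 fell and 1 rose in early neuroblast-like against otic epithelium-like cells, where 2.82% of all genes were called, with a median difference of -0.87 beside -0.10 over all genes. The cartilage collagens Col9a1 (-2.61 ± 0.37, limma adjusted p = 0.000732), Col9a3 (-2.16 ± 0.27, adjusted p = 0.000295) and Col2a1 (-2.12 ± 0.47, adjusted p = 0.0181), genes that Sox9 is known to activate in cartilage, fell, as Sox9 and Sox10 did. Snai2, a repressor active in neural crest, rose (1.42 ± 0.29, adjusted p = 0.0106). A link between the Sox genes and these collagens was not tested. In differentiating neuron-like against otic epithelium-like cells 5 of the 9 fell and none rose, where 12.8% of all genes were called, with a median of -1.90. Against otic epithelium-like cells, 5 fell and 1 rose in neural tube progenitor-like cells, where 6.19% of all genes were called. In mesenchyme-like cells 4 fell and 1 rose, where 6.33% were called. Sox10 was lower in both classes, while Sox9 was called in neither (-1.49, limma adjusted p = 0.0773, and -1.36, adjusted p = 0.104). Within the otic class, Col11a1 (2.81, adjusted p = 0.000136) and Col9a3 (1.69, adjusted p = 0.016) were higher in cluster 5 than in cluster 0, as Sox10 was. Over all genes 1.15% were called there. Against cluster 8, Col11a1 and Hapln1 were called higher in cluster 5, where 1.94% of all genes were called. Sox10 was not called in that pair (0.86, adjusted p = 0.292), and Sox9 was called in neither pair.

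In the list of SoxB1 partners and progenitor genes, 15 of 16 were tested. In neural tube progenitor-like against otic epithelium-like cells 6 rose and 3 fell, where 6.19% of all genes were called (median 0.56 beside -0.15 over all genes). Hes5, a Notch target (5.58 ± 0.52, limma adjusted p = 7.25e-06), Pou3f2, a POU factor that acts with Sox2 in neural cells (4.16 ± 0.46, adjusted p = 3.05e-05), and Vim, an intermediate filament gene (3.52 ± 0.56, adjusted p = 0.000859), were higher, and Eya1, a placodal cofactor, was lower (-3.43 ± 0.45, adjusted p = 0.000154). None of the 15 was called in early neuroblast-like against otic epithelium-like cells. In differentiating neuron-like against early neuroblast-like cells 2 fell and 1 rose, where 4.16% of all genes were called, and those that fell were Hes1, a Notch target (-2.92 ± 0.50, adjusted p = 0.00205), and Lfng, a Notch modifier (-0.56 ± 0.14, adjusted p = 0.0284).

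In the list of neuronal differentiation genes, all 12 were tested. Of these, 3 rose in early neuroblast-like against otic epithelium-like cells, 7 in differentiating neuron-like against early neuroblast-like cells and 11 in differentiating neuron-like against otic epithelium-like cells, with none lower (medians 1.08, 1.78 and 2.92). Over all genes 2.82%, 4.16% and 12.8% were called in these comparisons. In finer cluster 8 against neural tube progenitor-like cells 9 rose, where 12% of all genes were called. The largest between differentiating neuron-like and otic epithelium-like cells were Crmp1, Gap43, Mllt11 and Dcx, from 5.75 ± 0.41 for Crmp1 (limma adjusted p = 2.59e-07) to 4.72 ± 0.47 for Dcx (adjusted p = 4.14e-06); Gap43 acts in axon growth and Dcx in neuronal migration. Since the classes were drawn with neuronal markers, this direction is built into the comparison. Of 10 other Sox genes 4 passed the filter, and Sox5 was lower in differentiating neuron-like cells (-0.95, adjusted p = 0.0468) and in surface ectoderm-like cells (-1.44, adjusted p = 0.0083) than in otic epithelium-like cells, and Sox13 was higher in neural tube progenitor-like than in otic epithelium-like cells (1.11, adjusted p = 0.0415).

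The genes most like each member over the cells of a replicate were ranked by the lower of the 2 replicates' Pearson r, as a description over 237 and 254 cells that share plates and depth. For Sox10 they were BC006965 (0.69 and 0.68), Tbx2 (0.61 and 0.63), Wfdc2, Car2 and Cldn6. For Sox9 they were Ptn (0.48 and 0.48), Gsta4, Hmga2, Car2 and BC006965, and for Sox2 Rfx4 (0.45 and 0.50), Fabp7, Dtx4, Ildr2 and Pax3. Sox3 was nearest to Fabp7 (0.48 and 0.55), Ednrb, Pou3f2, Pax6 and Rfx4, and Sox1 to Pax3 (0.45 and 0.53), Pax6, Kif21a, Fez1 and Pou3f2. The nearest gene to Sox21 was another member, Sox3 (0.38 and 0.44), followed by Pax6, Pax3, Fgfr3 and Ildr2.

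Of the SoxC genes, Sox11 was nearest to Tuba1a (0.46 and 0.42), Cd24a, Dpysl4, Elavl3 and Elavl4, and Sox4 to Sbk1 (0.34 and 0.35), Pcbp4 and Stmn1. After subtraction of transfer Dpysl4 (0.35 and 0.36) was nearest to Sox11, with Tuba1a and Cd24a no longer among its nearest 5, and Pcbp4 (0.28 and 0.34) to Sox4, with Stmn1 no longer among its nearest 5. The nearest gene to each other member but Sox9 was the same, and Sox9 was then nearest to Gsta4 (0.48 and 0.50). Sox4 and Sox11 themselves correlated over cells at 0.34 and 0.11 in replicates 1 and 2. For Sox8 the nearest gene was Sox3 at 0.33 and 0.21, and in values this sparse that is no finding. The highest correlation between members was that of Sox9 and Sox10, at no less than 0.43 in either replicate.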

How the data were processed

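The authors deposited 1 table of log2 FPKM values with a column per cell, for cells sorted into 96-well plates and sequenced as full-length cDNA. The mm10 assembly and the tools Cufflinks, TopHat, Bowtie and Bowtie2, SAMtools, FastQC and cutadapt were named, with no version, per the submitters' processing notes. The values had been taken for log2(FPKM + 1) when the tests were planned, but 2 to the power of the value carries 6 significant digits (99.8% of values from 10 to 11 lie within 0.06 of a 4-decimal step, against 10.1% from 9 to 10), so they were read as log2 FPKM with values under 1 FPKM listed at 0. Of 19659 rows, 19494 genes with a unique symbol were kept, and 74.91% of their values were 0.

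Cells were clustered on 73 of 92 listed marker genes with scanpy 1.11.5 and leidenalg 0.10.2 (15 principal components, 15 neighbours, resolution 1.0), in Python 3.11.15. No doublet caller was run, since cells were sorted singly. Class means per replicate were fitted with limma 3.58.1 (R 4.3.3) with the replicate as a block, for 10547 genes found in at least 5% of cells. Same-numbered replicates share plates, and the deviations of 21 pairs of classes correlated at 0.0105 to 0.112 (median 0.0514). For cells with a source well, the median share was subtracted, and values at or under 3 times that amount were set to 0. In simulated data with known changes the fit was checked before use. The members and lists were chosen with earlier results of these data known. All 9 members were named in every comparison, and of each list at most 4 genes, those with the largest called differences. Likeness was ranked over 10600 genes. Some genes are not reported here. Alternatives covered the scale, pseudocount, filters, scaling, weights, clustering, other cell types, transfer and replicates.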

Additional observations from a re-analysis of the deposited data

How the results depend on the processing

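Of 651 alternative values for 82 member differences, 618 were counted as unchanged, 21 lost the call, 10 gained one and 2 turned sign. Those 2 were Sox21 in early neuroblast-like against otic epithelium-like cells by marker gates (-0.01) and Sox11 in the comparison of the 2 neuronal differences after subtraction of transfer (0.05), neither of them called. Values with a replicate left out are among the 651 and have no test. They were counted as unchanged unless a called difference turned sign. The uncalled Sox8 difference of neural tube progenitor-like from otic epithelium-like cells (0.39) thus counts as unchanged, though it was -0.15 with replicate 1 left out. The count of genes called in early neuroblast-like against otic epithelium-like cells (297) was 169 on the log of mean FPKM and 713 where the fit weighted each class mean by its cells. Between differentiating neuron-like and otic epithelium-like cells (1353) it was 439 in cells with no source well, where fewer cells enter, and 2235 weighted; between neural tube progenitor-like and otic epithelium-like cells (653), 172 and 2046; between cluster 2 and differentiating neuron-like cells (354), 121 in cells with no source well; between surface ectoderm-like and otic epithelium-like cells (499), 271 on the log of mean FPKM. Beyond the smaller number of cells, the cause was not tested.

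Without the replicate block, 285, 407, 1282, 577, 314, 476 and 598 genes were called, against 297, 439, 1353, 653, 354, 499 and 668 with it, in the 7 comparisons in the order early neuroblast-like, then differentiating neuron-like against early neuroblast-like, differentiating neuron-like, neural tube progenitor-like, cluster 2 against differentiating neuron-like, surface ectoderm-like and mesenchyme-like, each otherwise against otic epithelium-like cells. Leaving out a replicate leaves no test. Of 189 alternative shares of cells, 79 lay outside the exact interval, 31 of them at an FPKM of at least 5 and 48 under the transfer settings. A planned comparison with neural tube neuron-like cells was not run, as no cluster earned that name. Marker gates gave the otic epithelium-like, early neuroblast-like and differentiating neuron-like classes only. Cells with no source well gave the otic epithelium-like, differentiating neuron-like, neural tube progenitor-like and cluster 2 classes only. Cluster 2 was not kept as a class at the higher resolution. With 2 replicates, reads per cell unknown and values under 1 FPKM listed at 0, low levels such as those of Sox1, Sox3 and Sox8 are limited in precision.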

Other observations

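The 2 clusters of neural tube progenitor-like cells are given as values with no test. Cluster 7 (33 cells, led by Fez1, Fabp7 and Hes5) held Sox1 in 27.3% and Sox3 in 69.7% of cells, against 54.7% and 52.0% in cluster 1 (75 cells, led by Fabp7, Rfx4, Pax3 and Msx3). In the cells with no source well the shares were 38.5% for Sox1 and 53.8% for Sox3 in 13 cells of cluster 7, against 43.5% and 56.5% in 23 cells of cluster 1, so that the order for Sox3 turned. The Sox1 mean was 0.78 and 0.80 log2 FPKM in replicates 1 and 2 of cluster 7, against 1.25 and 1.77 in cluster 1, and it turned too in the cells with no source well, at 1.12 in cluster 7, against 0.83 in cluster 1.

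The 7 cells of the finer cluster with Foxd3 and Cdh19 among its leading genes in the early neuroblast-like class had Sox2 in 85.7% of cells as deposited but in 42.9% after subtraction of transfer, while Sox10 and Sox8 stayed at 57.1%. Of the 50 early neuroblast-like cells, 4 held Sox10 together with Foxd3 both as deposited and after subtraction.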
